A study of Mus musculus with 24 samples.

Results

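The genes described here are 10 immediate early genes of the mouse (Fosb, Fos, Egr1, Jun, Junb, Atf3, Ier2, Dusp1, Nr4a1 and Zfp36), out of 18820 genes measured by name. They were chosen by name, with earlier results of these data known, and Fosb was among them because it was higher in Casp1-null jejunum. That choice used measured values, so the jejunal difference between genotypes is given for all 10 as a description, with no test. Each gene had 1 probe set, so the values below come from 10 of 35556 probe sets.

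Expression was measured on 24 single-colour Affymetrix arrays from duodenum, jejunum, ileum and liver of Casp1-null and wild-type mice, with 3 arrays in each of 8 groups. Casp1-null mice lack caspase-1, the protease of inflammasomes. They had been backcrossed to C57BL/6, and the wild-type mice were age-matched C57BL/6J. The series is about secretion of triglyceride-rich lipoproteins. All mice were males aged 14 to 16 weeks on standard chow. The 3 intestinal segments of both genotypes came from mice fasted overnight that had received 200 µL olive oil into the stomach 2 h before sampling, and the sample was the scraped epithelial layer. The livers of both genotypes came from mice fasted for 16 h, with no oil named. No intestine without oil is part of the series, and no arrays held the Casp1-null strain background with caspase-1 intact, so genotype and strain background cannot be told apart. The labels name neither the allele nor litters, and they do not say whether a number marks the same mouse in several tissues, so p-values measure only the spread between these samples.

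Immediate early genes are transcribed soon after a cell is stimulated, by factors that are already present, such as serum response factor and CREB, and their transcripts are short-lived. Fos and Jun proteins pair to form the transcription factor AP-1, and Egr1 and Nr4a1 are further transcription factors of the same response. Dusp1 and Zfp36 act in feedback, the one by removing phosphate from MAP kinases and the other by speeding the decay of AU-rich messages. In the intestinal epithelium such genes respond to growth factors, microbial products and luminal contents.

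All values are log2 expression after robust multi-array averaging (RMA), and they are compared between samples, not between genes. The medians of the intestinal arrays were 4.874 to 5.005 and those of the liver arrays 5.187 to 5.224. Where the mean of a group was below the lowest of these medians for its organ, the gene was read as not shown above background there, and it is called under the array median below. Casp1 itself was lower in Casp1-null than in wild-type duodenum (log2 difference -2.07), jejunum (-3.07) and ileum (-2.22), with adjusted p of 0.000166 at most. In liver it was under the array median in both genotypes and could not check the labels. Enterocyte markers averaged 11.2 to 12.8 on the intestinal arrays and hepatocyte markers 12.6 to 12.8 on the liver arrays. A few arrays stood apart by other cell types. Pancreatic markers averaged 10.3 on wild-type duodenal array 1, against 4.42 to 4.65 on the other two of its group, and smooth muscle and stromal markers averaged 8.84 on Casp1-null ileal array 3 and 9.11 on wild-type ileal array 2, against 4.66 to 4.89 on the other ileal arrays. In these mixed samples, fewer cells of a type and less RNA per cell cannot be told apart.

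Upstream sequences are shown for 4 of the genes. Fosb and Fos are close paralogues whose values parted in Casp1-null jejunum, and Dusp1 and Zfp36 are the feedback genes that varied together between arrays. The 250 bases before the start of transcription were taken from RefSeq (mouse GRCm38.p6), 5′ to 3′ on the gene's strand, which covered 8 of the 10 genes. Capitals mark matches on either strand to TGACG, the core of the cAMP response element (with the full element TGACGTCA, which contains it on both strands, in Dusp1), or to the CArG box of serum response factor (in Zfp36).
Fosb, chr7:19310046-19310295, minus strand: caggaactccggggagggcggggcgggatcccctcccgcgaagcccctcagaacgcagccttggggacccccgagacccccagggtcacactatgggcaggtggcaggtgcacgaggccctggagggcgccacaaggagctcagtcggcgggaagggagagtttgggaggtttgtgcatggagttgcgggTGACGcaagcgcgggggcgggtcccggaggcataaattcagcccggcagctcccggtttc
Fos, chr12:85473640-85473889, plus strand: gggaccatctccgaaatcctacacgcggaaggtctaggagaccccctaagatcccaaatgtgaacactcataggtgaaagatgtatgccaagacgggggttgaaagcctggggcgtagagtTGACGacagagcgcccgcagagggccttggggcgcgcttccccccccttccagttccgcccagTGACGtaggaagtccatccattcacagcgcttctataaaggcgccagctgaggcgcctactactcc
Dusp1, chr17:26508473-26508722, minus strand: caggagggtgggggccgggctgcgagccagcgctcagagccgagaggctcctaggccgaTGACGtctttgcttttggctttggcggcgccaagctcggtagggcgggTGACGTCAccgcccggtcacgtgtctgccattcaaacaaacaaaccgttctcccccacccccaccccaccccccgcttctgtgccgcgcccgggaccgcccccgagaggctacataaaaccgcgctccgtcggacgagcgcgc
Zfp36, chr7:28379229-28379478, minus strand: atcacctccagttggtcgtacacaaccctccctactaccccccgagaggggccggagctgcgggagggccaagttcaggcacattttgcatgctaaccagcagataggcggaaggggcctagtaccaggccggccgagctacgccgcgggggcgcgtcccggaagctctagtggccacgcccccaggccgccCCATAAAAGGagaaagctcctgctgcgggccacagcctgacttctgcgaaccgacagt

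The core was found in 6 of the 8 windows (Fosb, Fos, Junb, Atf3, Dusp1 and Nr4a1) and in 17.77% of 32851 RefSeq windows of the same length. The Fosb window held it at -60 and the Fos window at -129 and -66, counted back from the start. The full element was in 1 of the 8 windows, that of Dusp1 at -143, and in 1.55% of all windows. The CArG box was also in 1 of the 8, that of Zfp36 at -58, and in 1.47% of all windows, and the AP-1 site TGANTCA was in none of the 8 and in 6.75% of all windows. These matches describe letters in a window and say nothing of binding.

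Fosb, which codes for an AP-1 subunit of the Fos family, stood far above all other samples in Casp1-null jejunum. It was at 7.66, 8.64 and 7.96 on the Casp1-null jejunal arrays, against 5.79, 5.22 and 5.40 on the wild-type jejunal arrays. The means were 8.08 ± 0.502 in Casp1-null and 5.47 ± 0.291 in wild type (SD, n = 3 each), a log2 difference of 2.61 (SE 0.294), or 6.12-fold. This is the value that brought Fosb into the group, so it is given without a test. The lowest Casp1-null jejunal array (7.66) lay 1.37 above the highest of the other 21 arrays (6.29, Casp1-null ileal array 2). Ranked after the values were seen by that gap, Fosb came first of 18820 genes and was the only one with a gap above 1. The second was Dhrs9, a retinol dehydrogenase, with 0.42, and by the size of the difference alone Fosb ranked 4.

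Elsewhere Fosb was low. In duodenum it was at 4.82, 5.11 and 4.77 in Casp1-null, against 5.14, 5.27 and 5.44 in wild type, so that the Casp1-null arrays lay just below the wild-type ones. In ileum it was at 4.96, 6.29 and 5.85 in Casp1-null, against 5.60, 5.31 and 5.84 in wild type, and the groups overlapped. In liver both genotypes were under the array median, with 4.65, 4.94 and 5.15 in Casp1-null against 4.89, 4.90 and 4.72 in wild type. The order of the group means after Casp1-null jejunum was Casp1-null ileum, wild-type ileum, wild-type jejunum and wild-type duodenum, and each of these steps was smaller than the pooled SD of the 2 groups it joined. None of the 6 named genes next to Fosb on chromosome 7 had a jejunal difference as large as that of Fosb. The 3 on the one side, Rtn2, Ppm1n and Vasp, differed by 0.00, -0.40 and -0.05 between Casp1-null and wild-type jejunum. Those on the other side, Cd3eap, Ppp1r13l and Ckm, differed by 0.03, 0.58 and -0.05. The arrays of both genotypes did not overlap for Ppp1r13l (5.93 to 6.51 in Casp1-null against 5.43 to 5.74 in wild type) and Ppm1n (4.51 to 5.04 in Casp1-null against 5.15 to 5.30 in wild type).

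Fos, the founding member of the Fos family, did not follow Fosb in jejunum. It was at 8.84, 7.92 and 7.66 on the Casp1-null jejunal arrays, against 9.04, 9.23 and 8.76 on the wild-type jejunal arrays, a log2 difference of -0.87 with groups that overlapped. In duodenum it was at 8.25, 8.62 and 8.61 in Casp1-null, against 9.14, 8.96 and 9.52 in wild type, with all Casp1-null arrays lower. In ileum it was at 7.65, 10.02 and 8.92 in Casp1-null, against 7.57, 7.94 and 8.90 in wild type. The array that was highest there, Casp1-null ileal array 2, was also the highest of its group for Fosb. In liver Fos was under the array median on every array, between 3.78 and 3.89 in Casp1-null and between 3.64 and 4.01 in wild type.

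**Figure D1:**
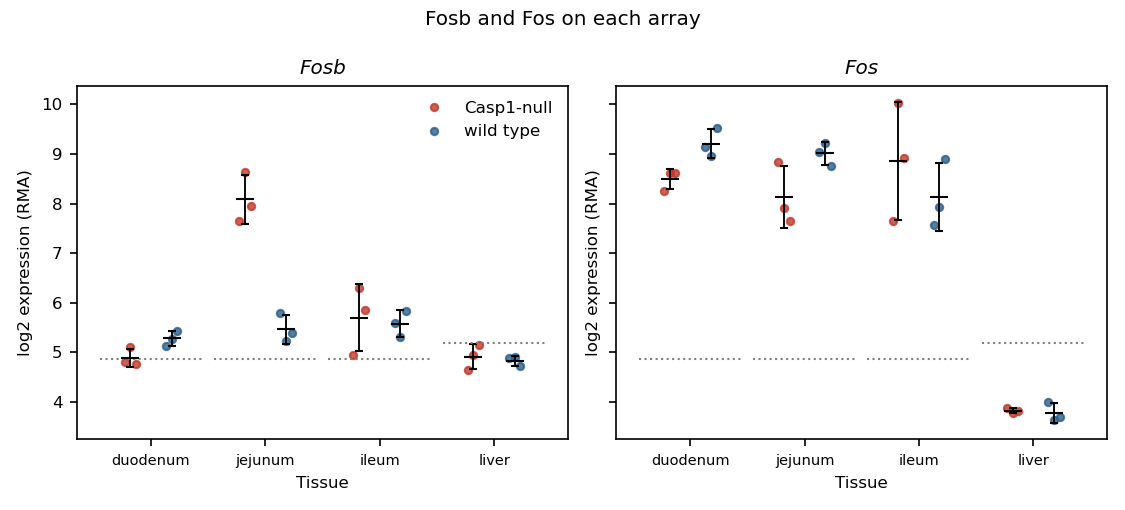
Log2 expression of Fosb (left) and Fos (right) on each array by tissue, with Casp1-null in red to the left of wild type in blue; horizontal marks and bars are the mean and SD of 3 arrays, and dotted lines the lowest array median of the organ. The Casp1-null jejunal arrays of Fosb lie between 7.66 and 8.64 and all other Fosb arrays at or below 6.29, whereas Fos in Casp1-null jejunum lies between 7.66 and 8.84 against 8.76 to 9.23 in wild type.

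Jun codes for the main partner of Fos in AP-1, and it was lower in Casp1-null than in wild-type jejunum without overlap. It was at 9.41, 9.33 and 9.04 in Casp1-null jejunum, against 10.14, 9.86 and 9.66 in wild type, a difference of -0.63. In duodenum it was at 10.08, 10.18 and 10.25 in Casp1-null, against 10.52, 10.45 and 10.83 in wild type, again with every Casp1-null array lower. In ileum the values were 9.92, 9.78 and 10.02 in Casp1-null against 10.22, 9.68 and 10.03 in wild type, which overlapped. The livers were spread over a wide range, with 7.42, 8.22 and 9.98 in Casp1-null against 8.95, 7.84 and 8.55 in wild type.

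Junb, a Jun paralogue that counters several actions of Jun, kept within 1.52 over all 24 arrays. Its values were 8.49, 8.07 and 8.39 in Casp1-null jejunum against 8.17, 7.94 and 8.21 in wild-type jejunum, and 7.84, 8.34 and 8.12 in Casp1-null ileum against 8.05, 7.12 and 7.80 in wild-type ileum. Both pairs overlapped. Duodenal Junb lay between 7.74 and 7.91 in Casp1-null and between 7.79 and 8.12 in wild type. Liver Junb lay between 6.97 and 7.24 in Casp1-null and between 7.30 and 7.42 in wild type, so the Casp1-null livers were lower on every array by a small step.

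Atf3, a stress-induced factor related to AP-1, spanned 6.02 over the arrays. Duodenal Atf3 was at 7.77, 7.80 and 7.31 in Casp1-null, against 8.49, 8.62 and 10.03 in wild type. All Casp1-null arrays were lower, and wild-type array 3 was far above its group. Jejunal Atf3 was at 9.47, 10.26 and 10.68 in Casp1-null against 11.03, 9.88 and 11.16 in wild type, and ileal Atf3 at 9.74, 10.15 and 10.02 in Casp1-null against 10.25, 9.79 and 10.16 in wild type. Both overlapped. Liver Atf3 was at 5.15, 6.42 and 6.98 in Casp1-null against 5.89, 5.66 and 5.46 in wild type.

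Egr1, a zinc-finger factor of growth factor responses, differed most between single arrays in Casp1-null ileum. It was at 6.66, 9.84 and 7.77 there, against 6.62, 6.98 and 6.89 in wild-type ileum. The Casp1-null mean of 8.09 ± 1.61 thus rested largely on array 2, and the wild-type mean was 6.83 ± 0.188 (SD, n = 3 each). Duodenal Egr1 was at 5.60, 6.07 and 5.90 in Casp1-null against 6.79, 5.92 and 6.58 in wild type, and jejunal Egr1 at 7.46, 6.86 and 8.25 in Casp1-null against 7.77, 7.65 and 7.66 in wild type. Liver Egr1 was at 8.49, 8.07 and 7.36 in Casp1-null against 9.43, 7.65 and 7.99 in wild type. The genotypes overlapped in all 4 tissues.

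Nr4a1, an orphan nuclear receptor, was near or under the array median in most groups. In ileum it was at 4.99, 5.88 and 6.39 in Casp1-null, against 4.58, 4.91 and 4.80 in wild type, where the mean was under the array median. All Casp1-null ileal arrays were higher, and the log2 difference was at least 0.99. Jejunal Nr4a1 was at 4.94, 4.89 and 5.34 in Casp1-null and at 5.37, 5.15 and 5.15 in wild type. Both duodenal groups were under the array median, and liver Nr4a1 lay between 5.02 and 5.63 in Casp1-null and between 4.81 and 5.94 in wild type.

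Ier2, a short nuclear protein of the growth factor response, varied least, by 1.20 over all arrays. In ileum it was at 5.88, 6.56 and 5.81 in Casp1-null, against 5.48, 5.49 and 5.54 in wild type, with no overlap. In the other tissues the genotypes overlapped, with jejunal arrays between 5.49 and 5.83 in Casp1-null and between 5.48 and 6.32 in wild type.

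Dusp1, the MAP kinase phosphatase that ends the signal, had the most negative jejunal difference of the 10 genes. It was at 8.64, 8.87 and 9.08 in Casp1-null jejunum, against 10.19, 9.99 and 9.69 in wild type, a difference of -1.10 (2.14-fold) with no overlap. Of the 8 windows read, only that of Dusp1 held the full cAMP response element, and a link to these values was not tested. Duodenal Dusp1 was at 8.46, 8.25 and 7.59 in Casp1-null against 9.34, 8.16 and 9.59 in wild type, and ileal Dusp1 at 7.93, 10.10 and 8.83 in Casp1-null against 8.14, 8.12 and 8.39 in wild type. In liver it was at 8.53, 9.47 and 9.98 in Casp1-null against 9.97, 8.28 and 7.97 in wild type. These 3 pairs of groups overlapped.

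Zfp36, the message-decay protein tristetraprolin, had overlapping genotypes in every tissue. Ileal Zfp36 was at 8.99, 9.95 and 9.35 in Casp1-null against 9.11, 8.51 and 8.99 in wild type, and jejunal Zfp36 at 9.62, 9.20 and 9.57 in Casp1-null against 9.91, 9.80 and 9.47 in wild type. Duodenal arrays lay between 9.34 and 9.47 in Casp1-null and between 9.11 and 9.73 in wild type, and liver arrays between 7.58 and 7.79 in Casp1-null and between 7.64 and 7.74 in wild type.

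**Figure D2:**
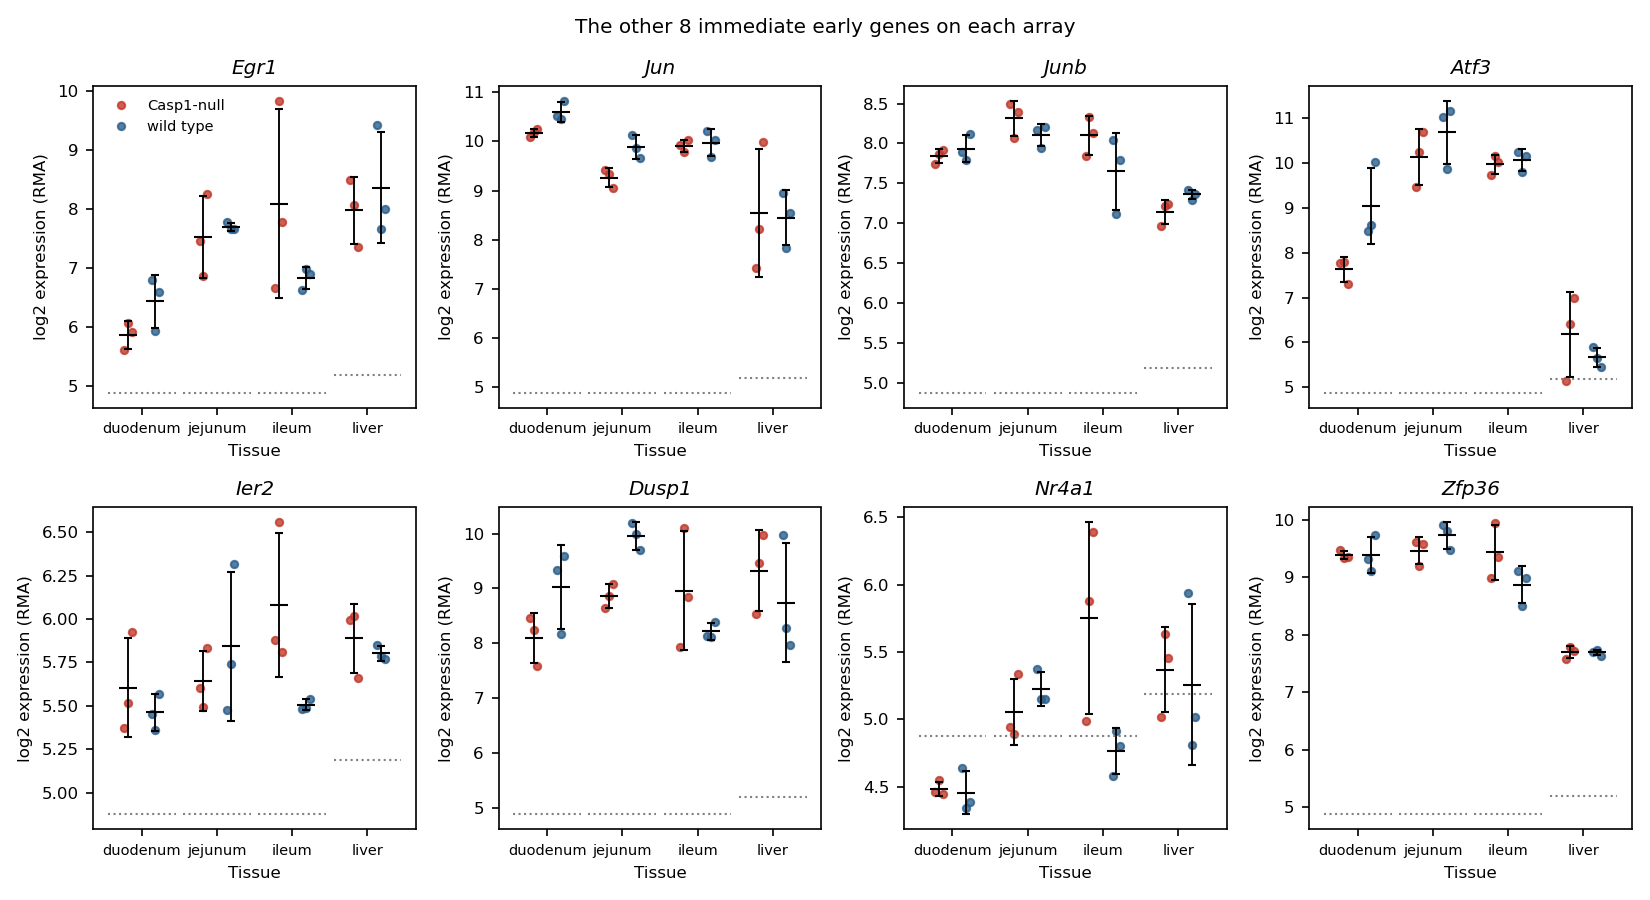
Log2 expression of the other 8 genes on each array by tissue, with Casp1-null in red to the left of wild type in blue; horizontal marks and bars are the mean and SD of 3 arrays, dotted lines the lowest array median of the organ, and each panel has its own vertical axis. Casp1-null ileal array 2 stands high for Egr1 (9.84) and Dusp1 (10.10), and Dusp1 in Casp1-null jejunum (8.64 to 9.08) lies below wild type (9.69 to 10.19).

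No member was called between genotypes where a test was made. The tests used limma, with p-values adjusted over all 35556 probe sets and a call at an adjusted p under 0.05. In duodenum 0 of 10 were called, beside 1.03% of all probe sets, and the median difference of the 10 was -0.41 against -0.03 over all probe sets. Of the 10, 2 had an unadjusted limma p under 0.05, beside 12.6% of all probe sets. They were Atf3 (log2 difference -1.42, SE 0.405, adjusted p = 0.131) and Jun (-0.43, SE 0.156, adjusted p = 0.252). The Casp1-null arrays lay below all wild-type arrays for 4 of the 10 (Atf3, Fos, Fosb and Jun), beside 9.93% of all probe sets, and above them for none, beside 10.3%. Stromal markers averaged 5.14 to 5.55 on the Casp1-null duodenal arrays and 4.61 to 4.72 on the wild-type ones, with 4 of 14 under the array median in Casp1-null and 9 in wild type. Myeloid markers averaged 5.50 to 6.11 in Casp1-null and 5.20 to 5.37 in wild type. B and plasma cell markers (7.13 to 7.68 against 6.47 to 6.63) and crypt markers (6.24 to 6.79 against 5.87 to 6.14) were also higher in Casp1-null. So were endothelial markers (4.59 to 5.08 against 4.32 to 4.38), of which 8 of 9 were under the array median in wild type. Hepatocyte markers went the other way (5.05 to 5.06 against 5.08 to 5.47), and T and NK cell and enterocyte markers overlapped. Their part in these differences was not tested. Without the wild-type duodenal array that was high in pancreatic markers, none of the 10 was called either.

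In ileum most differences had the opposite sign, and again 0 of 10 were called, beside 0.726% of all probe sets. The differences were above 0 for 8 of the 10, with a median over the 10 of 0.57 against 0.00 over all probe sets. The largest were Egr1 (1.26, adjusted p = 0.713), Nr4a1 (at least 0.99, adjusted p = 0.116), Dusp1 (0.74, adjusted p = 0.941) and Fos (0.72, adjusted p = 0.976). An unadjusted p under 0.05 was reached by 5 (Egr1, Nr4a1, Ier2, Junb and Zfp36), beside 6.57% of all probe sets. The arrays did not overlap for 2, Ier2 (0.58) and Nr4a1, which were higher in Casp1-null, beside 4.74% of all probe sets. Without Casp1-null ileal array 1, the lowest of its group for 8 of the 10, Nr4a1 was called (at least 1.37, adjusted p = 0.00104). Without Casp1-null ileal array 2, the highest of its group for 8 of the 10, the differences of Egr1 and Dusp1 shrank to 0.38 and 0.17. Those differences thus rested largely on that array. Enterocyte markers averaged 11.76 to 11.91 on the Casp1-null ileal arrays and 11.21 to 11.75 on the wild-type ones, and 1 of the 10, Fabp1, was called (1.76, adjusted p = 0.000381). T and NK cell markers averaged 8.01 to 8.26 in Casp1-null and 7.19 to 8.11 in wild type. Stromal markers averaged 4.66, 4.89 and 8.84 in Casp1-null and 4.88, 9.11 and 4.75 in wild type. Their part in these differences was not tested.

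In jejunum no test of the 10 genes is given, since the choice of members drew on that contrast. Over all probe sets 1.63% were called there. Apart from Fosb and Junb (0.21), all differences were below 0. They were -0.17 for Egr1 and Nr4a1, -0.20 for Ier2, -0.27 for Zfp36, -0.55 for Atf3, -0.63 for Jun, -0.87 for Fos and -1.10 for Dusp1. The groups did not overlap for Fosb, which was higher in Casp1-null, as were 8.35% of all probe sets, nor for Dusp1 and Jun, which were lower, as were 8.96%. Stromal markers averaged 4.69, 4.89 and 5.93 on the Casp1-null jejunal arrays against 4.62 to 4.94 on the wild-type ones, and 4 of 14 were under the array median in Casp1-null and 7 in wild type. Myeloid markers averaged 5.63 to 6.31 in Casp1-null and 5.34 to 5.61 in wild type. Fosb was at 7.96 on Casp1-null jejunal array 3, which had the highest stromal markers, and at 7.66 and 8.64 on arrays 1 and 2. The part of stromal and myeloid cells in the jejunal values was not tested.

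In fasted liver 0 of 10 were called, beside 0.726% of all probe sets, and none had an unadjusted p under 0.05, beside 11.7%. The largest differences were 0.58 for Dusp1 (SE 0.585, adjusted p = 0.777) and 0.51 for Atf3 (SE 0.436, adjusted p = 0.728). Junb (-0.22, SE 0.107) was the one gene whose arrays did not overlap, being lower in Casp1-null, beside 9.21% of all probe sets.

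**Figure D3:**
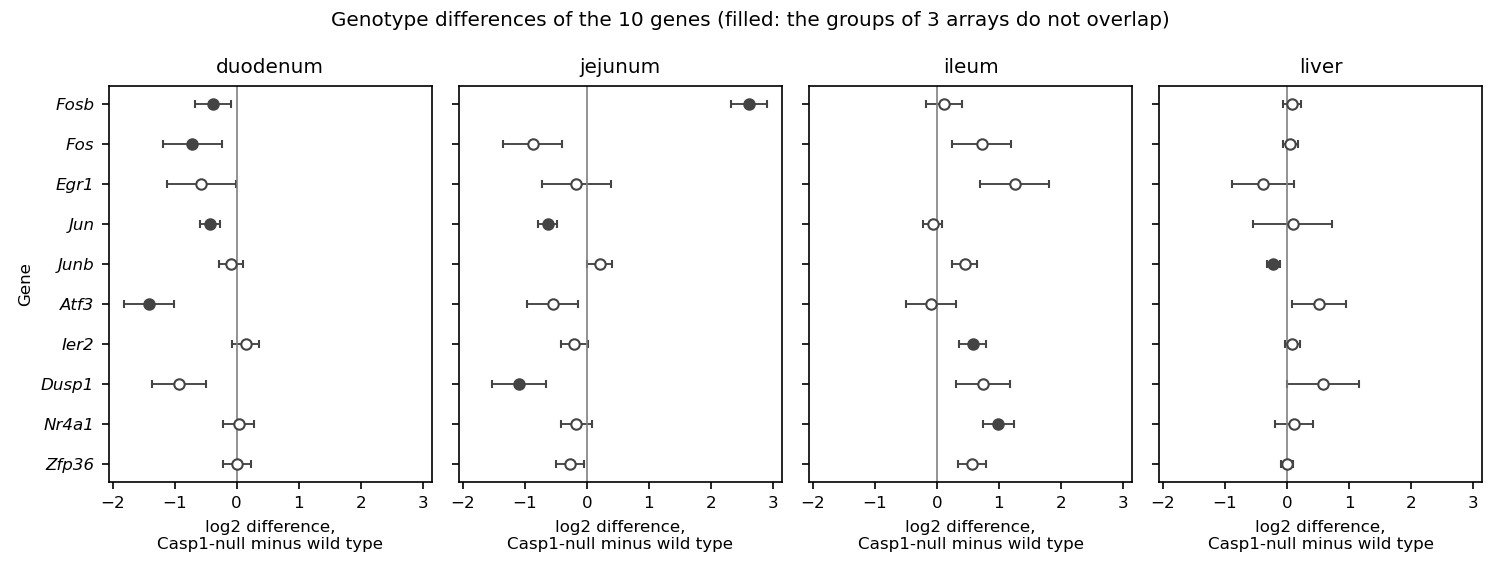
Log2 difference between Casp1-null and wild type for each gene (points) with its SE (bars) in 4 tissues; filled points mark groups of 3 arrays that do not overlap. Fosb in jejunum is at 2.61, and the other points lie between -1.42 (Atf3, duodenum) and 1.26 (Egr1, ileum); Fos and Fosb in liver and Nr4a1 in duodenum were not shown above background in either genotype.

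The difference between segments was tested as an interaction. The genotype difference in duodenum minus that in ileum was below 0 for all 10 genes, with Egr1 at -1.83 (SE 0.785), Dusp1 at -1.67 (0.622), Fos at -1.44 (0.668) and Atf3 at -1.32 (0.573). None was called (lowest adjusted p 0.717, for Nr4a1), beside 0.0562% of all probe sets. An unadjusted p under 0.05 was reached by these 4 and Nr4a1 (-0.96), beside 6.25% of all probe sets. The genotype difference in liver minus its mean in duodenum and ileum was called for none, beside 1.45% of all probe sets, and Atf3 alone had an unadjusted p under 0.05 (1.27, adjusted p = 0.369), beside 10.9% of all probe sets.

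In wild-type duodenum against jejunum 8 of 10 differences were below 0 (median -0.36, against 0.02 over all probe sets), and in ileum against jejunum also 8 of 10 (median -0.54, against -0.03). Jun was higher in duodenum than in ileum (log2 difference 0.62, SE 0.156, adjusted p = 0.0086) and higher in duodenum than in jejunum (0.71, adjusted p = 0.0129). It was the 1 member called of 10 between duodenum and ileum, beside 23% of all probe sets, and Atf3 (-1.51, adjusted p = 0.00919) was called there without wild-type duodenal array 3. That call of Jun was lost with the spread estimated from the compared groups only (adjusted p = 0.0532) and without the 3 arrays high in pancreatic or stromal markers (0.0773). Between duodenum and jejunum Jun and Atf3 (-1.64, SE 0.405, adjusted p = 0.0259) were called out of 9 tested, beside 5.96% of all probe sets. Atf3 was no longer called without wild-type duodenal array 1 (adjusted p = 0.125) or 2 (0.111) or wild-type jejunal array 1 (0.0927) or 3 (0.116), and Jun not without duodenal array 3 (0.0572) or jejunal array 3 (0.0693). With the spread from the compared groups only neither Atf3 (0.129) nor Jun (0.0581) was called, and Atf3 was not without the 3 arrays (0.145). Nr4a1 was called under both settings (adjusted p = 0.0211 and 0.0451), and Egr1 under the one of the compared groups only (0.0284). Between ileum and jejunum Dusp1 (-1.74, SE 0.44, adjusted p = 0.0167) and Zfp36 (-0.86, SE 0.229, adjusted p = 0.0226) were lower in ileum, 2 of 9 tested beside 11.8% of all probe sets. Neither was called without wild-type ileal array 2, the array high in stromal markers (adjusted p = 0.0594 for Dusp1 and 0.118 for Zfp36), or without wild-type jejunal array 1 (0.0701 and 0.0983), and Zfp36 not without jejunal array 2 (0.0696). Zfp36 was not called with the spread from the compared groups only (adjusted p = 0.0521), and neither Dusp1 (0.084) nor Zfp36 (0.156) without the 3 arrays. Junb was called there without wild-type ileal array 1 (-0.65, adjusted p = 0.0466). Fosb was left out of both tests against jejunum, and its wild-type means were 5.28 ± 0.151 in duodenum, 5.47 ± 0.291 in jejunum and 5.58 ± 0.265 in ileum (SD, n = 3 each).

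In Casp1-null mice 3 of 10 genes fell in duodenum relative to ileum, beside 16.5% of all probe sets. They were Atf3 (-2.34, SE 0.405, adjusted p = 0.000842), Egr1 (-2.23, SE 0.555, adjusted p = 0.0115) and Nr4a1 (at least 1.27 lower on the log2 scale, SE 0.247, adjusted p = 0.00216, with a duodenal mean under the array median). Without Casp1-null ileal array 1, Dusp1 (adjusted p = 0.042) and Fosb (0.00764) were called as well. Fosb was also called when only probe sets above the median were kept (adjusted p = 0.0465). With the spread estimated from the compared groups only, Egr1 (adjusted p = 0.112) and Nr4a1 (0.0566) were not called.

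The largest differences of these genes were between organs. In wild-type mice 8 of 10 were called between liver and the mean of duodenum and ileum, beside 60.8% of all probe sets, and in Casp1-null mice 5 of 10, beside 61.2%. Fos was at least 28.8-fold lower in Casp1-null liver than in Casp1-null intestine and at least 29.8-fold lower in wild-type liver than in wild-type intestine (adjusted p = 6.02e-10 and 4.96e-10), with liver under the array median. Atf3 fell as well in liver relative to intestine (log2 difference -2.62 in Casp1-null and -3.89 in wild type), as did Zfp36 (-1.71 and -1.44), Jun (-1.50 and -1.84) and Junb (-0.83 and -0.43). The highest adjusted p of these 5 genes was 0.00101 in Casp1-null (Jun) and 0.0227 in wild type (Junb). Junb was not called in wild type without liver array 2 (adjusted p = 0.0751) or 3 (0.0553) or ileal array 1 (0.0563). The same held with the spread from the compared groups only (0.0706).

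Egr1 went the other way, with liver above intestine by 1.00 in Casp1-null (adjusted p = 0.0881) and by 1.73 in wild type (adjusted p = 0.00537). It was not called in wild type without liver array 1 (1.19, adjusted p = 0.0658). In Casp1-null it was called without ileal array 2 (1.44, adjusted p = 0.00299) and with array weights (1.34, adjusted p = 0.0213). Nr4a1 was called higher in wild-type liver (0.65, adjusted p = 0.0288) and Fosb lower (at least 0.60, adjusted p = 0.0339), but neither in Casp1-null (adjusted p = 0.396 and 0.163). In wild type the call of Nr4a1 was lost without liver array 1 (adjusted p = 0.299), ileal array 1 (0.0551) or duodenal array 2 (0.0501), and that of Fosb without any 1 of the 3 liver arrays (0.062 to 0.107), duodenal array 3 (0.0615) or ileal array 3 (0.0691). In Casp1-null Fosb was called without ileal array 1 (lower by at least 0.57, adjusted p = 0.017). Dusp1 and Ier2 were not called in either genotype in the main fit. Dusp1 was called in Casp1-null without ileal array 2 (1.08, adjusted p = 0.0317). Ier2 was called higher in wild-type liver with the spread from the compared groups only (0.32, adjusted p = 0.00515). Liver arrays had medians 0.27 above those of intestine, and the share of called probe sets that were higher in liver was 58.7% in Casp1-null and 57.1% in wild type as deposited, and 37.2% and 34.4% after each array was centred on its median. With that centring Nr4a1 was no longer called in wild type (at least 0.38, adjusted p = 0.163) and Fosb was called in Casp1-null (lower by at least 0.63, adjusted p = 0.0216). Quantile normalization changed the same calls, with adjusted p = 0.136 for Nr4a1 in wild type and 0.0262 for Fosb in Casp1-null. Organ, oil load and fasting differ together between these samples and cannot be told apart.

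**Figure D4:**
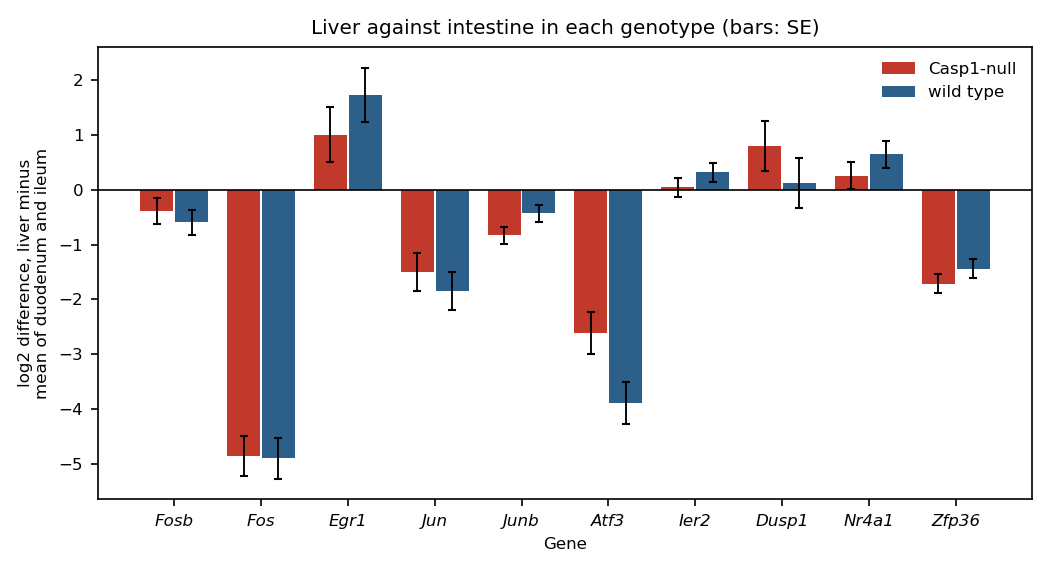
Log2 difference between liver and the mean of duodenum and ileum for each gene, in Casp1-null (red, left bar of each pair) and wild type (blue, right bar), with the SE of the fit. Fos reaches -4.85 in Casp1-null and -4.90 in wild type, Atf3 -2.62 and -3.89, and Egr1 lies above 0 in both (1.00 and 1.73).

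Most of the 10 genes also varied together between arrays of 1 group, most of all in Casp1-null ileum. The median range over the 3 arrays of a group was 1.14 for the 10 genes there, against 0.313 for all probe sets. In the other 7 groups it was 0.348 to 0.555 for the 10 genes, against 0.239 to 0.312 for all probe sets. Casp1-null ileal array 2 was the highest of its group for 8 of the 10 and lay 0.60 above the group mean on average. Array 1 was the lowest for 8 and lay 0.63 below it. How often other probe sets were highest or lowest on these arrays was not counted. Egr1 spanned 3.17, Fos 2.36 and Dusp1 2.16 over these 3 arrays, whereas Jun spanned 0.24 and Atf3 0.42. The array with raised stromal markers in that group was array 3, whose members averaged 0.02 above the group mean. Stromal markers were at 4.89 on array 2 and 4.66 on array 1. Heat shock genes, a list of 9 measured genes of protein folding stress, averaged 8.78 on array 1, 9.59 on array 2 and 9.41 on array 3. The part of these markers and genes in the spread of the 10 members was not tested.

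Other groups showed further cases, again without a count over other probe sets. In wild-type duodenum array 3 was the highest of its group for 8 of the 10 genes, with a mean deviation of 0.30. Array 2 was the lowest for 8, with a mean deviation of -0.28. Wild-type liver array 1 lay above its group mean for all 10 genes, by 0.41 on average, with Dusp1 at 9.97 and Egr1 at 9.43. In Casp1-null liver the members lay 0.32 below the group mean on array 1 and 0.25 above it on array 3, where Jun was at 9.98 and Atf3 at 6.98.

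**Figure D5:**
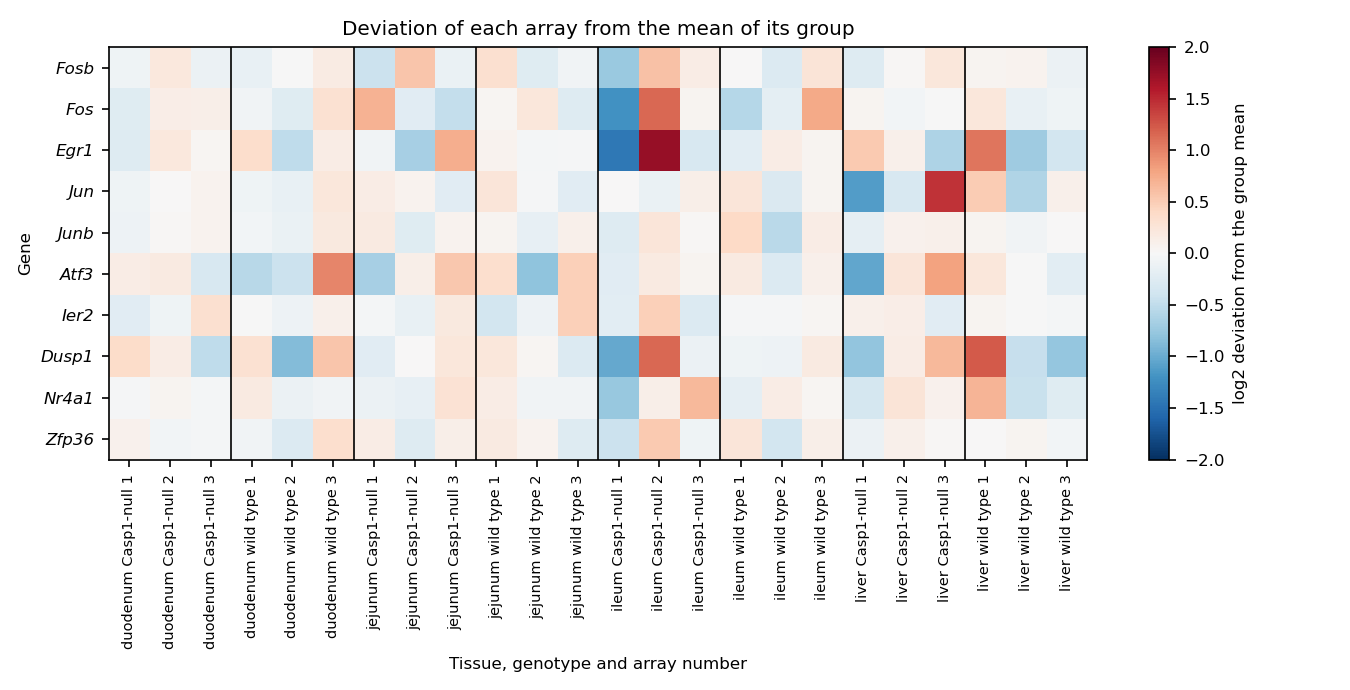
Deviation of each array (columns, by tissue and genotype) from the mean of its group for each gene (rows), from blue (below) to red (above) on a log2 scale. Casp1-null ileal arrays 1 and 2, mostly blue and mostly red, have the largest mean deviations (-0.63 and 0.60). Wild-type liver array 1 lies above its group mean for all 10 genes (mean 0.41).

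With the group means removed, the 45 pairs of members had a median Pearson's r of 0.399 over the 18 intestinal arrays. Of these pairs, 11 were above 0.5 and 4 below 0, the lowest being Jun and Ier2 (-0.389). These values describe arrays that share labelling and normalization. The closest pairs were Egr1 and Dusp1 (0.796), Dusp1 and Zfp36 (0.761) and Junb and Zfp36 (0.76). Without the 3 Casp1-null ileal arrays the median over 15 arrays was 0.175 and 6 pairs were above 0.5. Egr1 and Dusp1 were then at 0.445, Junb and Zfp36 at 0.733, and Egr1 and Nr4a1 at 0.823. Fosb was at 0.631 with Dusp1 and 0.513 with Fos over 18 arrays, and at 0.264 and -0.035 over 15. The genes most like Fosb on that measure, out of 10523 named genes above the median level, were Rybp (0.831), a Polycomb-associated protein, Ltb (0.819), lymphotoxin beta, Sytl1 (0.808), Basp1 (0.792) and Stx4a (0.779). Those most like the mean of the 10 were Sh3d19 (0.88), Mdh2 (0.876), Pde5a (0.872), Errfi1 (0.865), which codes for an inhibitor of the EGF receptor, and Myadm (0.852). Both rankings used all 18 arrays and were not repeated without Casp1-null ileum. Ltb and Sytl1 had lowest intestinal group means of 4.90 and 4.88, near the array medians.

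Other genes of the response showed few differences between genotypes. Of 41 further immediate early genes measured, 0 were called in duodenum, 0 in ileum and 1 in liver, beside 1.03%, 0.726% and 0.726% of all probe sets. The median differences of the 41 were -0.08 in duodenum, -0.16 in jejunum, 0.10 in ileum and 0.03 in liver, against -0.03, -0.01, 0.00 and 0.00 over all probe sets. The liver call was Myc, a growth regulator, which was higher in Casp1-null by 2.38 (adjusted p = 0.049). Gadd45g, a growth arrest gene, differed between organs in its genotype difference (3.05, liver minus intestine, adjusted p = 0.0014), the 1 of the 41 called there, beside 1.45% of all probe sets. Of 12 other AP-1 family genes, 15 MAP kinase phosphatases and Sprouty-type inhibitors, 18 kinases and factors upstream and 9 heat shock genes, none was called between genotypes in duodenum, ileum or liver, beside those same shares. In jejunum 1 of the 41 and 1 of the 15 were called, both lower in Casp1-null, beside 1.63% of all probe sets. None of the 12, the 18 or the 9 was called there. Spred1, an inhibitor of the Ras pathway, was the 1 of the 15 whose genotype difference differed between organs (-1.14, liver minus intestine, adjusted p = 0.019), beside the same 1.45%.

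In the wild-type gut each of these lists held genes called between ileum and jejunum. Of the 15 phosphatases and inhibitors, 1 rose and 6 fell in ileum relative to jejunum (median -0.57), among them Dusp8 (-1.34, adjusted p = 0.00381), Dusp14 (-2.15, adjusted p = 0.00478) and Dusp6 (-1.19, adjusted p = 0.014), and the one that rose was Spred1 (1.15, adjusted p = 0.00181). In duodenum relative to jejunum 4 of the 15 fell, Dusp14 (-3.64, adjusted p = 0.000129), Dusp10, Spred1 and Dusp8. Of the 41 further immediate early genes, 10 fell and none rose in duodenum relative to jejunum, with Tnfaip3 (-1.38, adjusted p = 0.00566), an NF-kappaB feedback gene, first by p. In ileum relative to jejunum 9 of the 41 fell and 4 rose, with Errfi1 (-1.26, adjusted p = 0.00145) first. Of the 12 other AP-1 family genes, 0 were called in duodenum against jejunum, and of the 9 heat shock genes 0. Of the 18 upstream kinases and factors 1 rose and 2 fell in duodenum relative to jejunum, and 4 rose and 3 fell in ileum relative to jejunum. In ileum relative to jejunum 2 of the 12 AP-1 genes rose and 2 fell, and 1 of the 9 heat shock genes, Bag3 (-0.74, adjusted p = 0.0244), fell. Over all probe sets 5.96% were called in duodenum against jejunum and 11.8% in ileum against jejunum.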

How the data were processed

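The values analysed were the deposited log2 expression values per probe set of 24 arrays, which the authors obtained by RMA, per the submitters' processing notes, with no version stated there. RNA of an integrity number above 8.0 (100 ng) was labelled for the arrays, per the labels' protocols. The values were used as deposited. Probe sets were named from the platform annotation: 21218 of 35556 carried 1 gene symbol, 1881 several and 12457 none, and 21185 gene identifiers were found in the mouse gene table and 33 were not.

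Linear models were fitted in R 4.3.3 using lmFit and eBayes of limma 3.58.1, with two-sided tests. The 18 intestinal arrays were fitted together (12 residual degrees of freedom), the 6 liver arrays alone (4), and comparisons between organs on all 24 (16). Benjamini-Hochberg adjustment ran over 35556 probe sets, and genes were called at an adjusted p under 0.05. The procedure was tested on simulated data. Precision is limited by the number of arrays. No detection calls were used here, so the reading of background against array medians was chosen after the data had been seen. Plots were drawn with matplotlib 3.10.9 in Python 3.11.15.

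The members, lists and comparisons were chosen with earlier results of these data known. All 10 members were examined in every comparison, and Casp1 between genotypes within each tissue. Of each related list at most 4 called genes per comparison were named, and for some comparisons only 1 or none. The 5 genes most like Fosb and the 5 most like the mean of the 10 were named as well. Genes with several probe sets were represented by the one with the highest mean. Same-numbered arrays deviated together with r above 0.1 in 1 of 12 pairs across genotypes and in 5 of 18 across segments, so numbers were not taken to pair samples. Alternatives were array weights, a filter at the median, a trended robust fit, quantile normalization, median centring, the replicate number or the mouse as a block, a spread from the compared groups only, and leaving out arrays.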

Additional observations from a re-analysis of the deposited data

Results flagged for a closer look

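Fosb differed between duodenum and jejunum in the direction of its genotype difference. It was at 4.77 to 5.11 in Casp1-null duodenum against 5.14 to 5.44 in wild-type duodenum, and at 7.66 to 8.64 in Casp1-null jejunum against 5.22 to 5.79 in wild-type jejunum. All 3 Casp1-null arrays were thus lower in the one segment and higher in the other, and the duodenal difference minus the jejunal one was -2.998 on the log2 scale. This difference was not tested, because the jejunal difference served to choose the gene. The duodenal difference alone was -0.38 and was not called (limma, adjusted p = 0.641). Casp1-null arrays lay below all wild-type arrays in duodenum for 9.93% of all probe sets. The Casp1-null duodenal mean of Fosb, 4.90, was close to the lowest intestinal array median, 4.874.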

How the results depend on the processing

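With the replicate number as a block, no count of called members moved (for example 8 in wild-type liver against intestine and 3 in Casp1-null duodenum against ileum), and same-numbered arrays correlated at -0.376 to 0.304 across genotypes and at -0.098 to 0.173 across segments. The count for Casp1-null duodenum against ileum was 1 in place of 3 with the spread from the compared groups only (Egr1 and Nr4a1 lost), and 3 to 5 when single arrays were left out. For wild-type duodenum against ileum it was 1 as reported, 2 with array weights (Atf3 added), 0 with the spread from the compared groups only, 0 when the 3 arrays high in pancreatic or stromal markers were left out together (an alternative chosen after seeing the data), and 1 to 2 without single arrays. Wild-type duodenum against jejunum gave 0 to 2 members without single arrays, and wild-type ileum against jejunum 0 to 3, and 0 without the 3 arrays. With the spread from the compared groups only, Egr1 (adjusted p = 0.0284) and Nr4a1 (0.0211) were called in duodenum against jejunum in place of Atf3 and Jun, and Egr1 (0.0126) in place of Zfp36 (0.0521) in ileum against jejunum. Without single arrays the count was 0 to 1 in ileum between genotypes, 5 to 8 for wild-type liver against intestine and 5 to 7 for Casp1-null liver against intestine, and the jejunal difference of Fosb was 2.34 to 2.83. In duodenum and liver between genotypes, and in both interactions, no alternative that was run called a member. No difference of a member that was called changed its sign. Over all probe sets the calls in ileum between genotypes were 41 to 375 beside 258, in jejunum 224 to 821 beside 581, in liver 71 to 486 beside 258 and in duodenum 219 to 571 beside 366. For Casp1-null liver against intestine and for wild-type liver against intestine, quantile normalization put 49.2% and 47.9% of the calls higher in liver, against 58.7% and 57.1% as deposited. The cause of these shifts was not tested, beyond the smaller number of arrays where some were left out. Another probe set per gene could not be tried, since each member has 1, and a mouse block or a spread from other groups has no meaning for liver alone. Fos and Fosb in liver and Nr4a1 in duodenum were too close to background for a size of their genotype difference.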

Other observations

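Fosb was the only one of the 18820 genes whose 3 Casp1-null jejunal arrays all lay more than 1 log2 unit above every other array, in a ranking made after the values were seen. Far behind it in the same ranking came Dhrs9 (0.42), Tmem86a (0.33), Tbc1d5 (0.32) and Znfx1 (0.31). Next were Oas1e (0.27, with both jejunal means under the array median), Pcsk1 (0.27) and Dusp5, a MAP kinase phosphatase (0.27). Tnfrsf12a, a receptor of the TNF family (0.25), and Slc5a12 (0.25) followed. These values are a description and were not tested.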
